A study of Mus musculus with 6 samples.

Results

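Vascular adhesion molecules and selectins are the proteins by which circulating leukocytes slow, stop and cross the vessel wall. The 9 genes described here are the vascular selectins *Sele* and *Selp*, the selectin ligand gene *Selplg*, the immunoglobulin family members *Vcam1*, *Icam1*, *Icam2*, and *Madcam1*, and the junctional genes *Pecam1* and *Cdh5*. They were chosen by name for their function from the 46078 genes counted, and 8 of the 9 had enough counts to be tested, among 15554 genes tested in all. *Madcam1* was the exception, with 5 counts in the 6 libraries together.

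Transcripts were measured by bulk RNA-Seq in 3 chronic stroke infarcts and 3 equivalent pieces of contralateral cortex. All mice were wild-type male C57BL/6J mice, listed at 3 months of age, and all had been subjected to the distal middle cerebral artery occlusion and hypoxia model of ischemic stroke, in which the artery is permanently closed by electrocoagulation. No treatment is given in the sample records, the tissue was collected at 7 weeks after stroke, and the mice were perfused with saline. The contralateral cortex came from stroke-bearing mice, so tissue of uninjured mice was not part of the comparison, and the records do not state which infarct and which contralateral cortex share a mouse or that each library came from its own mouse. The *p* values therefore measure the spread between these tissue samples.

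In the adhesion cascade, selectins on activated endothelium catch leukocytes through glycosylated ligands such as PSGL-1, the product of *Selplg*, and the cells roll. Leukocyte integrins then bind VCAM-1 and the ICAM proteins and hold the cells firmly, and the cells pass the junctions that PECAM-1 and VE-cadherin, the product of *Cdh5*, help to build. In resting brain endothelium this machinery is kept low, and inflammatory cytokines acting through NF-κB are known to induce E-selectin, VCAM-1, and ICAM-1.

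At 7 weeks after stroke, infarcts held more mRNA of every tested member of this group than contralateral cortices. *Selp* and *Sele*, which were close to undetected in contralateral cortex, were counted in all 3 infarcts. *Icam1* was 31.4-fold higher, *Vcam1* 5.13-fold, and the constitutive endothelial genes *Cdh5*, *Icam2*, and *Pecam1* between 3.36-fold and 4.16-fold. All 8 tested members were upregulated, which means an adjusted *p* under 0.05 and a log2 fold change above 1 in the quasi-likelihood test of edgeR with Benjamini-Hochberg adjustment over all tested genes, and 0 were downregulated. For comparison, 25.7% of all tested genes were upregulated by the same rule, and 3256 genes were downregulated. The 3 infarct libraries lay above the 3 contralateral libraries for all 8 members, and this was so for 37.6% of all tested genes. The median log2 fold change was 2.21 over the 8 members, also with *Selp* and *Sele* at their lower bounds, and 0.03 over all tested genes. In bulk tissue, more cells of a type and more RNA per cell cannot be told apart.

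The libraries held 11943570 to 19933962 counts on genes. Infarct libraries correlated with each other at 0.957 to 0.973 on the log2 scale across genes, contralateral libraries at 0.985 to 0.988, and libraries of different regions at 0.666 to 0.784. Neuronal marker transcripts, 10 genes including *Snap25*, *Syt1*, and *Camk2a*, summed to 10640 to 11720 CPM, that is counts scaled to the same library total, in contralateral cortices and to 732, 965, and 2153 CPM in infarcts 1, 2, and 3. All 10 were downregulated, with a median log2 fold change of −3.07. Infarct 3 thus held the most neuronal RNA of the infarcts. Lymphocyte transcripts summed to 374, 154, and 123 CPM in infarcts 1, 2, and 3, against 5.81 to 7.36 CPM in contralateral cortices, so infarct 1 held the most lymphocyte RNA.

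**Figure D1:**
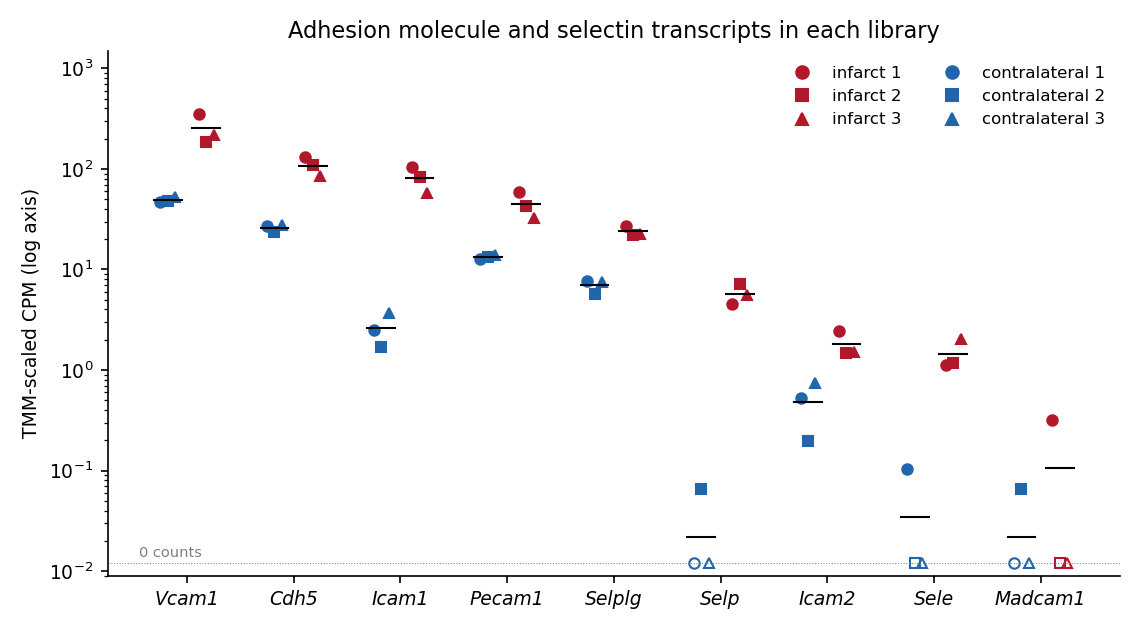
Transcript level of the 9 genes in each library, as TMM-scaled CPM on a log axis, with infarcts in red, contralateral cortices in blue, a symbol for each library number, and a black line at the mean of each region. Open symbols on the dotted line are libraries with 0 counts. Infarct symbols lie above contralateral symbols for all genes except *Madcam1*.

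P-selectin is stored in endothelial and platelet granules and moves to the cell surface within minutes of activation. *Selp* (ENSMUSG00000026580, GRCm38 chr1:164115264-164150026, plus strand) was represented by 57, 97, and 82 reads in infarcts 1, 2, and 3, against 0, 1, and 0 reads in contralateral cortices 1, 2, and 3. In CPM these were 4.54, 7.12, and 5.60, with a mean of 5.75 ± 1.30 (SD, n = 3), against 0.065 CPM in contralateral cortex 2 and 0 in the others. Each infarct thus held at least 57 reads of a gene that was nearly absent from the opposite cortex. With each contralateral library set to 3 counts, the level was at least 27.4-fold higher in infarcts, and the fitted log2 fold change was 7.55 ± 0.63 (SE, adjusted *p* = 5.38e-06 in edgeR), larger than for all but 1.33% of tested genes. The fitted value rests on the single contralateral read and is not a bound. Without contralateral cortex 2 it was 9.35. Genes on the opposite strand overlap 14.1% of the exon bases of *Selp*, and they held at most 5 counts in any library.

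Because platelets also carry *Selp* transcripts, 8 platelet genes were examined. Of the 4 that could be tested, 1 was upregulated and 1 was downregulated. *Pf4*, the gene of platelet factor 4, rose to 0.84 ± 0.11 CPM, at least 4.0-fold higher. *Ppbp*, the gene of another platelet chemokine, which was named after its values were seen, had too few counts to be tested, with 10, 8, and 17 reads in infarcts and none on the contralateral side. *Gp1bb*, a subunit gene of the von Willebrand factor receptor, fell from 5.89 to 1.42 CPM, but 92.9% of its exon bases are shared on the same strand with other annotated genes, among them *Sept5*. The platelet sum depended on *Gp1bb*. With it the regions overlapped, at 5.81 to 7.44 CPM in infarcts against 6.19 to 9.35 CPM on the contralateral side. Without it, an alternative chosen after the data were seen, the sum was 4.62 to 5.39 CPM in infarcts against 1.30 to 2.46 CPM. The receptor genes *Gp9* and *Gp6* had at most 3 counts in every library, and the part of platelet RNA in the *Selp* difference was not tested.

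E-selectin is made by cytokine-activated endothelium and is not stored. *Sele* (ENSMUSG00000026582, GRCm38 chr1:164048234-164057677, plus strand) was represented by 14, 16, and 30 reads in the infarcts, against 2, 0, and 0 reads on the contralateral side. The levels were 1.11, 1.17, and 2.05 CPM in infarcts, against 0.104 CPM in contralateral cortex 1. The lowest infarct therefore stood clear of all 3 contralateral cortices, although at very few reads. The level was at least 6.90-fold higher in infarcts by the bound of 3 counts per contralateral library, with a fitted log2 fold change of 4.81 ± 0.79 (adjusted *p* = 4.60e-04 in edgeR). Without contralateral cortex 1, which held the only contralateral reads, the fitted value was 7.29.

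PSGL-1 is carried by leukocytes, and its gene is also transcribed in microglia. *Selplg* (ENSMUSG00000048163, GRCm38 chr5:113818536-113832644, minus strand) reached 26.8, 22.2, and 22.8 CPM in infarcts, against 7.63, 5.67, and 7.57 CPM on the contralateral side. Relative to its mean, it was the member with the tightest infarct values, 23.9 ± 2.53 CPM against 6.95 ± 1.12 CPM (SD, n = 3 each), and was 3.44-fold higher (log2 fold change 1.78 ± 0.19, adjusted *p* = 3.11e-05 in edgeR).

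By their list median, leukocyte markers rose further than *Selplg*. All 10 genes of a pan-leukocyte list were upregulated, with a median log2 fold change of 4.84, and their sum was 1917 to 3085 CPM in infarcts, against 97.3 to 120 CPM on the contralateral side. Expressed as a percentage of that sum in the same library, *Selplg* was 0.870%, 1.02%, and 1.19% in infarcts and 6.37%, 5.82%, and 6.55% in contralateral cortices. Relative to leukocyte RNA the ligand gene was therefore lower in every infarct, by 2.62 on the log2 scale. Against 10 microglia and macrophage genes the difference was smaller, with 1.28%, 1.25%, and 1.39% in infarcts and 2.41%, 2.13%, and 2.14% in contralateral cortices. The regions did not overlap in either ratio, and the exact two-sided permutation test gave *p* = 0.1, the smallest value that 3 against 3 libraries allow.

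PSGL-1 binds selectins only after it has been decorated with sugars and sulfate. Of 11 genes of the enzymes that build selectin ligands, 9 were tested, 4 were upregulated and 0 were downregulated. The fucosyltransferase gene *Fut4* rose by a log2 fold change of 5.24 and the galactosyltransferase gene *B4galt1* by 4.06. *Chst2*, a sulfotransferase gene, was not called, at 101 CPM in infarcts against 130 CPM on the contralateral side. *Fut7*, the leukocyte fucosyltransferase, had too few counts to be tested, with 5, 7, and 11 reads in infarcts, against 2, 7, and 3 on the contralateral side.

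VCAM-1 binds the integrin α4β1 of lymphocytes and monocytes and is found on endothelium and also on fibroblasts, choroid plexus and other cells. *Vcam1* (ENSMUSG00000027962, GRCm38 chr3:116109949-116129688, minus strand) reached 356, 185, and 218 CPM in infarcts, against 47.3, 47.8, and 53.0 CPM on the contralateral side. Its contralateral values were nearly equal while infarct 1 stood well above the other infarcts, so that the means were 253 ± 91.0 and 49.3 ± 3.15 CPM (SD, n = 3 each). *Vcam1* was 5.13-fold higher in infarcts (log2 fold change 2.36 ± 0.24, adjusted *p* = 2.54e-05 in edgeR). Without infarct 1 the log2 fold change was 2.05.

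Genes of the other cells in which VCAM-1 can be found differed between the regions to unlike extents. All 10 fibroblast and leptomeningeal genes were upregulated, led by *Col3a1*, a fibrillar collagen, and *Lum*, a matrix proteoglycan, and their sum was 7542 to 9343 CPM in infarcts, against 253 to 349 CPM on the contralateral side. Of 8 choroid plexus and ependymal genes, 3 of 5 tested were upregulated, led by the water channel gene *Aqp1*. The sum of the list was 45.7 to 57.9 CPM against 8.14 to 10.7 CPM, and *Aqp1* alone had a mean of 28.9 CPM in infarcts. *Ttr*, the defining transcript of choroid plexus, had at most 3 counts in every library. Of 9 tested pericyte and smooth muscle genes 6 were upregulated. Of 9 astrocyte genes 2 were upregulated, 1 was downregulated and 6 were not called. The astrocyte sum was lower in infarcts, at 5261 to 7869 CPM against 13650 to 14500 CPM. On the contralateral side most of that sum was the glutamate transporter gene *Slc1a2*, which was downregulated, from 12300 to 2933 CPM. The 2 upregulated genes were *Gfap*, which rose from 38.6 to 1080 CPM, and *Aqp4*, which rose from 323 to 1032 CPM. The part of RNA of these cells in the *Vcam1* difference was not tested.

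ICAM-1 binds the β2 integrins LFA-1 and Mac-1, and cytokines induce it strongly on endothelium and on glia and leukocytes. *Icam1* (ENSMUSG00000037405, GRCm38 chr9:21015985-21028817, plus strand) was represented by 1303, 1133, and 836 reads in infarcts, against 48, 26, and 40 reads on the contralateral side. The corresponding levels were 104, 83.2, and 57.1 CPM against 2.51, 1.69, and 3.69 CPM. *Icam1* was thus low but detected in every contralateral cortex, and all 3 infarcts lay far above that range. Among members measured in both regions by more than 3 counts per library, it had the largest fold change, 31.4-fold (81.3 ± 23.4 against 2.63 ± 1.01 CPM, log2 fold change 4.97 ± 0.33, adjusted *p* = 2.27e-06 in edgeR). An annotated gene on the opposite strand covers 11.7% of the exon bases of *Icam1* and was not used here. Without a stated strand setting, its reads could not be told apart from those of *Icam1*.

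ICAM-2 is a constitutive endothelial ligand of LFA-1 that is also present on platelets and leukocytes. *Icam2* (ENSMUSG00000001029, GRCm38 chr11:106377656-106388075, minus strand) was counted sparsely, with 31, 20, and 22 reads in infarcts, against 10, 3, and 8 reads on the contralateral side. The levels were 2.47, 1.47, and 1.5 CPM against 0.522, 0.195, and 0.738 CPM, with means of 1.81 ± 0.568 and 0.485 ± 0.273 CPM, and the regions did not overlap. It was 3.79-fold higher in infarcts (log2 fold change 1.92 ± 0.51, adjusted *p* = 0.00814 in edgeR), the largest adjusted *p* of the tested members. When the change was tested against a 2-fold change instead of against 0, the call was lost (adjusted *p* = 0.0504 by glmTreat of edgeR).

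MAdCAM-1 guides lymphocytes into gut and mucosal lymphoid tissue through the integrin α4β7. *Madcam1* (ENSMUSG00000020310, GRCm38 chr10:79664559-79668537, plus strand) was represented by 4, 0, and 0 reads in infarcts, against 0, 1, and 0 reads on the contralateral side. Its reads fell in 1 infarct and 1 contralateral cortex, and a difference was not detectable at this depth. Tested without the filter on low counts, its log2 fold change was 1.84 (adjusted *p* = 0.430 in edgeR, over 27012 genes).

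Of 7 genes of high endothelial venules, the lymphoid tissue vessels in which *Madcam1* and glycosylated sialomucins are used, 4 were tested and 3 were upregulated. The most abundant gene, *Enpp2*, was not called, at 508.5 CPM in infarcts against 494.5 CPM on the contralateral side. The sum of the list overlapped between regions, at 519 to 617 CPM in infarcts against 390 to 581 CPM. *Ccl21a*, a chemokine that draws lymphocytes and dendritic cells, was represented by 108, 34, and 57 reads in infarcts, against 0, 0, and 2 on the contralateral side, at least 23.8-fold higher. *Ccl21a* has near-identical gene copies, so its reads may be shared between them. The sialomucin gene *Glycam1* had 0, 2, and 4 reads in infarcts and none on the contralateral side, and the sulfotransferase gene *Chst4* had 0 reads in infarcts.

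PECAM-1 and VE-cadherin hold endothelial cells together and are expressed by endothelium of all vessels, and PECAM-1 is also found on platelets and several leukocytes. *Pecam1* (ENSMUSG00000020717, GRCm38 chr11:106654217-106750628, minus strand) reached 58.5, 43.1, and 32.5 CPM in infarcts, against 12.6, 13.4, and 13.9 CPM on the contralateral side. The infarct values were more spread than the contralateral ones and did not reach them. *Pecam1* was 3.36-fold higher in infarcts (44.7 ± 13.1 against 13.3 ± 0.68 CPM, log2 fold change 1.75 ± 0.22, adjusted *p* = 8.80e-05 in edgeR). *Cdh5* (ENSMUSG00000031871, GRCm38 chr8:104101625-104144511, plus strand) reached 130, 109, and 85.2 CPM in infarcts, against 26.8, 23.6, and 27.4 CPM on the contralateral side. *Cdh5* was 4.16-fold higher (108 ± 22.6 against 25.9 ± 2.02 CPM, log2 fold change 2.06 ± 0.18, adjusted *p* = 8.09e-06 in edgeR). *Cdh5*, *Pecam1*, and *Icam1* were each highest in infarct 1 and lowest in infarct 3, the infarct with the most neuronal RNA, and the part of that RNA in their order was not tested.

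VE-cadherin is tied to the cytoskeleton by catenins. Of 6 adherens junction genes, 4 were upregulated, among them the catenin genes *Ctnna1* (log2 fold change 1.91) and *Ctnnd1* (1.38), which encode α-catenin and p120-catenin, and *Ctnnb1* (1.07), which encodes β-catenin. Another annotated gene overlaps 61.2% of the exon bases of *Ctnnd1* on the same strand. The neural cadherin gene *Cdh2*, which falls outside the rule for named genes and was chosen after its values were seen, was downregulated (−1.30). *Ptprb*, the gene of the endothelial phosphatase VE-PTP that binds VE-cadherin, was not called, at 168 CPM in infarcts against 130 CPM on the contralateral side.

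**Figure D2:**
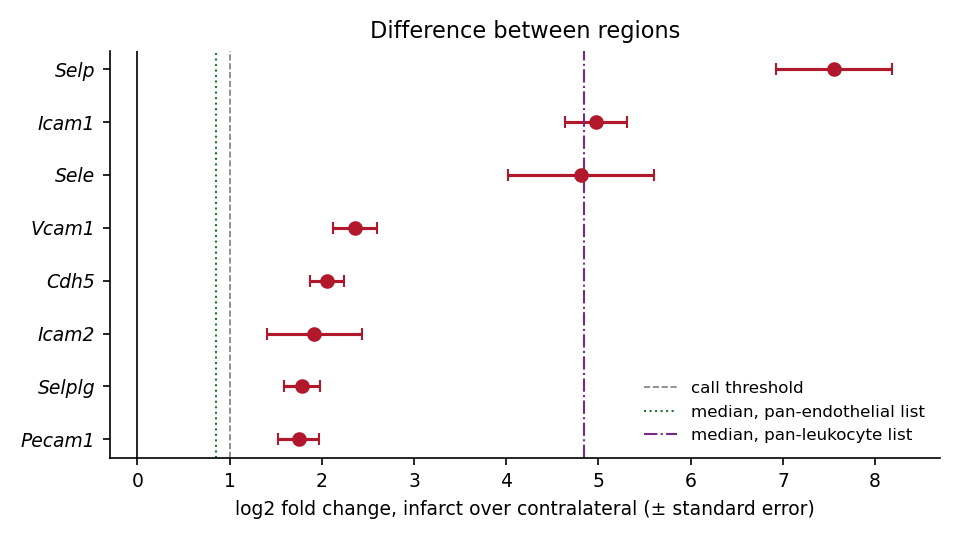
Log2 fold change of infarct over contralateral cortex for the 8 tested genes, with bars of 1 standard error from the edgeR fit. All points lie to the right of a log2 fold change of 1, and the bars are widest for the sparsely counted *Sele*, *Selp*, and *Icam2*.

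Promoter sequence was at hand for 4 members in the RefSeq table for GRCm38.p6. The 250 bases before the RefSeq gene start are shown for the selectins and *Icam1*, whose transcripts rose most, and for *Madcam1*, which stayed near 0. For *Icam1* the window ends at 21015939, short of the gene start of 21015985 given above, so its positions count from the RefSeq start. Capitals mark matches, on either strand, to the core GGNNNTTCC, which was chosen after the sequences were seen, to the NF-κB consensus, or to TATAAA.
Icam1 chr9:21015690-21015939, plus strand: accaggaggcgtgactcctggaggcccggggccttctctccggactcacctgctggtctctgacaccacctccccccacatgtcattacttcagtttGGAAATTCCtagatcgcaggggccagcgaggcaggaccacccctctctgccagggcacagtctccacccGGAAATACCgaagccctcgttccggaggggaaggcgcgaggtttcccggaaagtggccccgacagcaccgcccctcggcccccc
Sele chr1:164047984-164048233, plus strand: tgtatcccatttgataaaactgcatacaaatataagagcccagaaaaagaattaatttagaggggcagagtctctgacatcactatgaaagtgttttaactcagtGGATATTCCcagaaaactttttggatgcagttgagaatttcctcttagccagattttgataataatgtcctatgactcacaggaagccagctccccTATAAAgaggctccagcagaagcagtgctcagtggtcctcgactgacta
Selp chr1:164115014-164115263, plus strand: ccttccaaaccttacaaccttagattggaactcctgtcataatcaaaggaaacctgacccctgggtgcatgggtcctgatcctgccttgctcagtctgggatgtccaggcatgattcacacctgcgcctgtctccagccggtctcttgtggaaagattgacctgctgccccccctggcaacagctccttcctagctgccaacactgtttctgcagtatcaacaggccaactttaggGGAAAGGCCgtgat
Madcam1 chr10:79664309-79664558, plus strand: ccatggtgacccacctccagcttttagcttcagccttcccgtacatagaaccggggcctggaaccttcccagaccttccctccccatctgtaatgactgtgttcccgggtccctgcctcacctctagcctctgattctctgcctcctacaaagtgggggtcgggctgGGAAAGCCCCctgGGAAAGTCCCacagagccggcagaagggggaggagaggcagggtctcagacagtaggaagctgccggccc

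*Icam1* holds GGAAATTCC, which matches the core on both strands, at 153 to 145 bases before the RefSeq start. A further core match, on the minus strand and printed as GGAAATACC, lies at 84 to 76 bases. *Sele* holds the core match GGATATTCC at 145 to 137 bases and TATAAA at 49 to 44 bases. *Selp* holds a core match on the minus strand, printed as GGAAAGGCC, at 14 to 6 bases. Only the *Madcam1* window of these 4 matched the full NF-κB consensus, with GGAAAGCCCC at 83 to 74 bases and GGAAAGTCCC at 70 to 61 bases, both on the minus strand and both overlapping a core match. Among 32851 mouse promoters of the same length, 3.9% held the NF-κB consensus, 15.7% the core, and 12.4% TATAAA. A match describes letters and not a bound site.

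To compare levels between genes, CPM were divided by exon length in kilobases, giving RPKM. In infarcts *Vcam1* (28.5 ± 10.3 RPKM), *Cdh5* (25.7 ± 5.37 RPKM), and *Icam1* (18.7 ± 5.37 RPKM) were the most abundant, and neighbors in this order overlapped between libraries. *Pecam1* (7.18 ± 2.10 RPKM) and *Selplg* (5.60 ± 0.59 RPKM) followed and overlapped each other. *Selp* (1.30 ± 0.29 RPKM) and *Icam2* (0.95 ± 0.30 RPKM) overlapped as well, and *Sele* (0.50 ± 0.18 RPKM) and *Madcam1* (0.07 ± 0.13 RPKM) were lowest.

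The order differed in contralateral cortex. There *Cdh5* (6.17 ± 0.48 RPKM) and *Vcam1* (5.56 ± 0.36 RPKM) were highest and overlapped, and *Pecam1* (2.14 ± 0.11 RPKM) and *Selplg* (1.63 ± 0.26 RPKM) stood above *Icam1* (0.60 ± 0.23 RPKM) and *Icam2* (0.25 ± 0.14 RPKM). *Icam1* moved from rank 5 in contralateral cortex to rank 3 in infarcts, and *Selp* stood at rank 6 in infarcts. *Madcam1*, *Sele*, and *Selp* overlapped in contralateral cortex, with at most 2 reads in any library, and were not ranked among each other.

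To set the endothelial members against vessel RNA of the same library, each was also expressed as a percentage of the summed CPM of 17 pan-endothelial genes that are not members. Of these 17 genes 8 were upregulated and 0 were downregulated, with a median log2 fold change of 0.85 and a range from −0.14 for *Flt1*, a VEGF receptor gene, to 1.94 for *Ramp2*, an adrenomedullin receptor subunit gene of which *Vps25* overlaps 33.4% of the exon bases on the same strand. Their sum was 590 to 830 CPM in infarcts, against 421 to 446 CPM on the contralateral side. Endothelial marker RNA was thus higher in the infarcts, although by less than any tested member when taken by the list median.

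*Vcam1* amounted to 42.9%, 30.2%, and 36.9% of the pan-endothelial sum in infarcts and to 11.2%, 10.8%, and 11.9% in contralateral cortices. *Icam1* amounted to 12.5%, 13.6%, and 9.67% in infarcts and to 0.596%, 0.382%, and 0.828% in contralateral cortices. *Selp* amounted to 0.547%, 1.17%, and 0.948% in infarcts, against 0.0147% in contralateral cortex 2 and 0 in the others. These members were therefore higher in the infarct also per unit of endothelial marker RNA. ICAM-1 and VCAM-1 are not confined to endothelium, and the log2 fold change of *Icam1*, 4.97, lay close to the pan-leukocyte list median of 4.84. It lay above the microglia and macrophage list median of 3.36 and the astrocyte list median of 0.593. Which cells carried the *Icam1* and *Vcam1* transcripts was not tested.

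The junctional genes showed smaller differences in the same ratio. *Cdh5* amounted to 15.7%, 17.8%, and 14.4% in infarcts and to 6.37%, 5.33%, and 6.14% in contralateral cortices. *Pecam1* amounted to 7.05%, 7.06%, and 5.50% in infarcts and to 2.99%, 3.02%, and 3.12% in contralateral cortices. On the log2 scale the ratio was higher in infarcts by 4.36 for *Icam1*, 1.69 for *Vcam1*, 1.44 for *Icam2*, 1.42 for *Cdh5*, and 1.09 for *Pecam1*. The place of *Icam2* in this order rested on contralateral cortex 2, which held 3 of its reads. Its contralateral SD was 1.005 on the log2 scale, and without that library its difference was 0.875. The regions did not overlap for any of these 5 genes, and the exact two-sided permutation test gave *p* = 0.1 for each, the smallest value that 3 against 3 libraries allow.

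**Figure D3:**
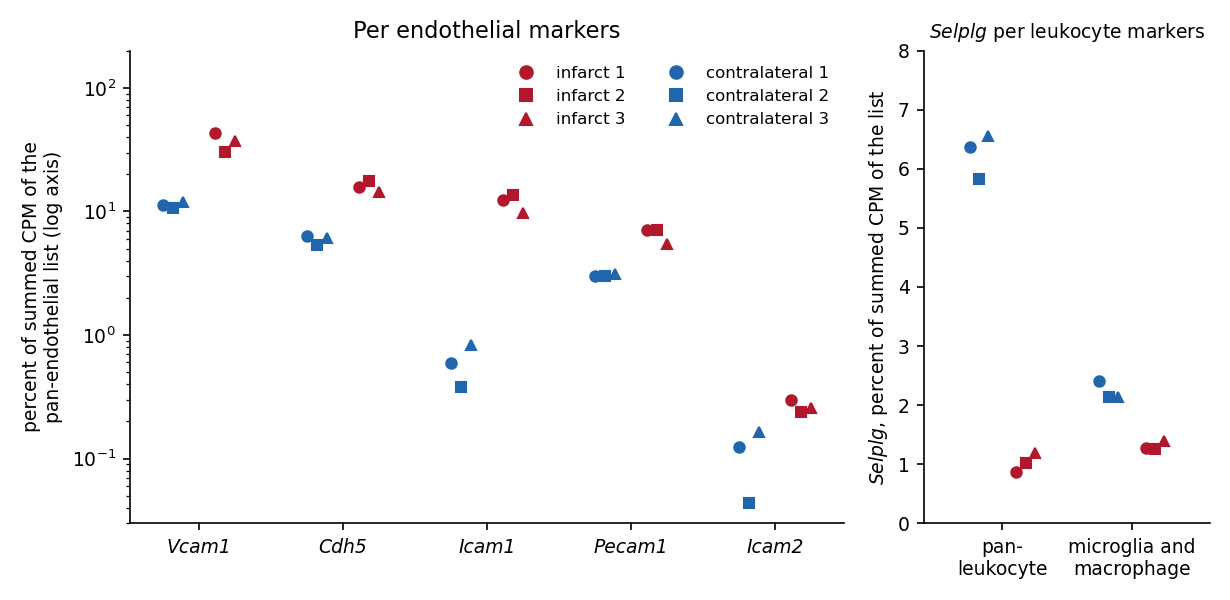
*Vcam1*, *Icam1*, *Icam2*, *Pecam1*, *Cdh5*, and *Selplg* as a percentage of the summed CPM of a marker list in the same library. The axis is logarithmic for the endothelial members and linear for *Selplg*, with infarcts in red and contralateral cortices in blue. Endothelial members are set against 17 pan-endothelial genes and *Selplg* against leukocyte or microglial genes, and *Selplg* is the gene whose infarct values lie below its contralateral values.

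The size of these ratios depended on the marker list. Of 10 brain capillary genes 3 were upregulated and 3 downregulated. The transporter gene *Slc16a1* rose from 116 to 442 CPM and *Spock2*, a matrix proteoglycan gene, fell from 692 to 171 CPM. The sum was 1179 to 1321 CPM in infarcts, against 1327 to 1388 CPM on the contralateral side, and against it the *Vcam1* difference was 2.40 and the *Pecam1* difference 1.81 on the log2 scale. These values rested on *Spock2*. Without it the other 9 genes summed to 1051 to 1180 CPM in infarcts, against 618 to 736 CPM on the contralateral side, and the differences were 1.58 for *Vcam1* and 0.98 for *Pecam1*. When the abundant *Flt1* and *Ptprb* were left out of the pan-endothelial list, these differences were 1.24 and 0.65. Both lists without their abundant genes were chosen after the data were seen.

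Venular endothelium is where most leukocytes cross. Of 8 venular genes 5 were upregulated and 1 was downregulated, with a median log2 fold change of 2.05. *Vwf*, the von Willebrand factor gene, rose from 40.1 ± 2.80 to 249 ± 65.5 CPM, and the oxysterol-forming enzyme gene *Ch25h* rose by a log2 fold change of 4.15. *Ackr1*, the atypical chemokine receptor that marks venules, was the downregulated gene, falling from 40.1 ± 2.5 to 8.99 ± 3.23 CPM, and *Cadm3* overlaps 25.7% of its exon bases on the same strand.

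The genes of other vascular adhesion and transmigration molecules did not move as a group. Of 16 genes 14 were tested, 5 were upregulated, 2 were downregulated and 7 were not called, with a median log2 fold change of 0.75. *Aoc3*, the gene of vascular adhesion protein 1, was upregulated (3.28), and *Ackr1* was downregulated. The most abundant genes, *Alcam* (419 CPM in infarcts, 243 CPM contralaterally) and *Cd47* (328 and 330 CPM), were not called. *Icam5*, the neuronal paralog of *Icam1*, was the second downregulated gene and was named after its values were seen. It had 1.43, 4.11, and 13.2 CPM in infarcts 1, 2, and 3, and infarct 3 was also the one with the most neuronal RNA. Antisense genes overlap 30.8% of its exon bases.

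Leukocyte receptors that bind these molecules were upregulated as well. The 8 integrin and CD44 genes reported here all passed the test, with a median log2 fold change of 5.68, and their sum was 1874 to 2809 CPM in infarcts, against 211 to 250 CPM on the contralateral side. *Itgb1*, the β1 partner of the α4 integrin that binds VCAM-1, rose from 131 to 1005 CPM. The α4 gene *Itga4* rose less, from 60.8 to 211.5 CPM, with the lowest log2 fold change of the 8 genes, 1.80. Which cells carried the *Itgb1* transcripts was not tested. *Itgax*, the αX integrin of dendritic cells and macrophages, had the largest log2 fold change, 9.14, followed by *Itgb7*, the β7 integrin that pairs with α4 to bind MAdCAM-1, with 6.36. Of the other marker lists, 9 of 10 microglia and macrophage genes, all 10 lymphocyte genes, and all 4 tested of 9 neutrophil genes were upregulated. The neutrophil sum reached 12.8 to 19.4 CPM in infarcts, against 0.104 to 1.01 CPM in contralateral cortices.

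Genes of the cytokine and NF-κB pathway known to induce endothelial adhesion molecules were also higher. Of 16 genes 15 were tested and 15 were upregulated, with a median log2 fold change of 3.94, or 2.96 with the genes that had 3 counts or fewer in every contralateral library at their lower bound. *Tnfrsf1b*, a TNF receptor gene, rose from 5.32 to 238 CPM and *Il1r1*, the interleukin-1 receptor gene, from 15.8 to 104 CPM. *Tnf* itself was sparse at 1.5 CPM in infarcts and had 0 reads in all contralateral cortices, at least 7.15-fold higher. These receptors are carried by many cell types, and their part in the adhesion molecule levels was not tested.

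**Figure D4:**
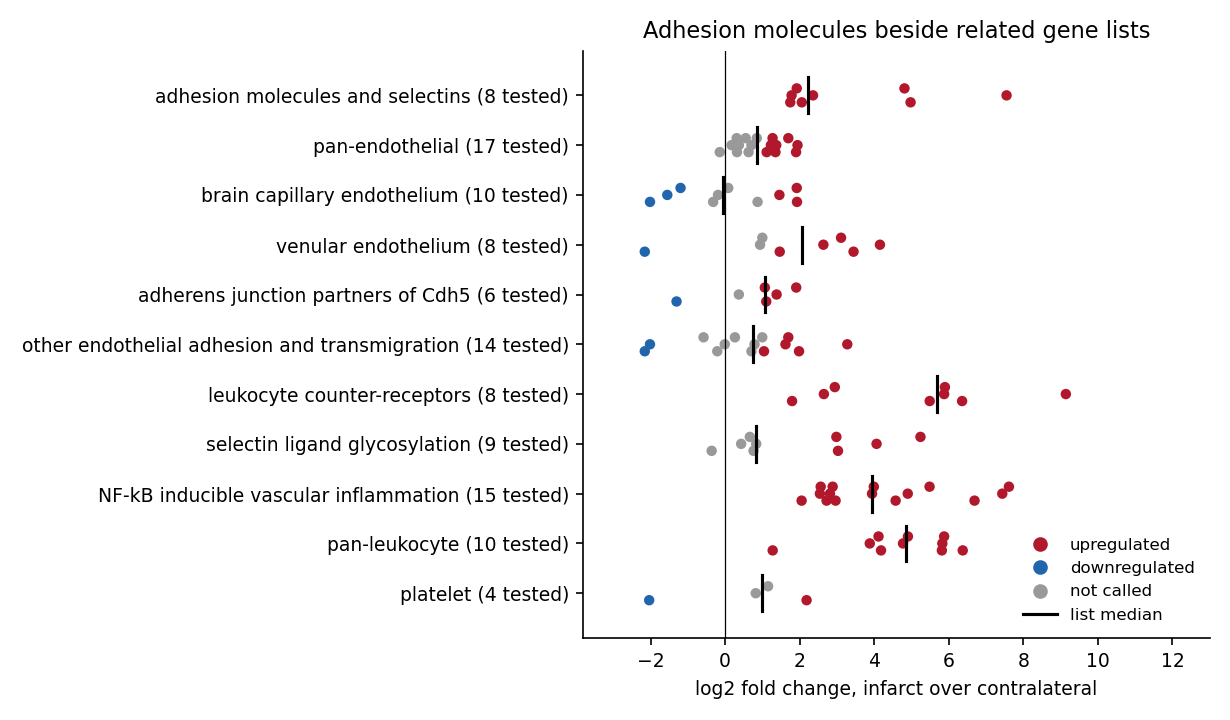
Log2 fold change of infarct over contralateral cortex for each tested gene of 11 lists, with upregulated genes in red, downregulated genes in blue, genes that were not called in grey and a black line at each list's median. The 8 adhesion molecules and selectins lie at 1.75 to 7.55, with a median of 2.21 between the pan-endothelial median of 0.85 and the leukocyte counter-receptor median of 5.68.

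For each tested member, the genes with the most similar profile were listed as those with the smallest distance between centered log2 CPM over the 6 libraries, among 15431 genes. The log2 CPM used a prior count of 2, which draws values near 0 together. The nearest to *Vcam1* were *Tead2*, *Angptl2*, and *Lama1*, at distances of 0.232 to 0.245 log2 units. *Icam1* was nearest to *Tnfsf8*, *Il18r1*, and *H2-Ob*, *Selp* to *Siglecg*, *Zmynd15*, and *Rbm47*, and *Sele* to *Dsc3*, *Prss46*, and *P4ha3*. Nearness did not mean an equal fitted log2 fold change. It was 6.47, 6.27, and 4.91 for the 3 genes near *Icam1* (4.97), and 9.16, 5.86, and 5.53 for those near *Selp* (7.55). *Cdh5* was nearest to *Nynrin*, *Serp1*, and *Rhbdd1*, *Pecam1* to *Tbc1d4*, *Pdlim1*, and *Actb*, *Icam2* to *Tcf7l1*, *Grap*, and *Myl9*, and *Selplg* to *BC035044*, *Gpr108*, and *Hist1h2bc*. Members were left out of these lists. All these genes share the 6 libraries and differ between the 2 regions, and Pearson's r with the member was 0.990 to 0.999 over those libraries.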

How the data were processed

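Bulk RNA-Seq libraries came from 3 infarcts and 3 contralateral cortices. According to the study's methods and the submitters' processing notes, the authors prepared stranded mRNA libraries, demultiplexed with bcl2fastq 2.19, trimmed with Trimmomatic 0.32, aligned to GRCm38 with STAR 2.5.2b, and deposited raw counts per Ensembl gene made with HTSeq, without normalization. The HTSeq version, annotation and strand setting are not given in the sources used here. The 5 entries per library that name no gene were left out, and 65.7% to 73.4% of all tallied reads were on genes. Identifiers were matched to GENCODE M21 (45143 matched, 935 not).

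Differences between regions were tested on the counts with edgeR 4.0.16 in R 4.3.3 (filterByExpr, TMM, robust glmQLFit and glmQLFTest, region as the only term, biological coefficient of variation 0.22). Benjamini-Hochberg adjustment ran over 15554 genes, and a call needed both an adjusted *p* below 0.05 and an absolute log2 fold change above 1. CPM were scaled with TMM, and RPKM divided them by the union of exon lengths. Standard errors were derived from the quasi-likelihood F statistic. Library totals on genes were 12146959 to 13427057 in infarcts and 11943570 to 19933962 in contralateral cortices. Where contralateral libraries held 3 counts or fewer, fold changes were bounded with 3 counts in each library, which covers counting error only. The members, the 19 marker and pathway lists and their tests were chosen with earlier results of these data known, and 10 genes stand in more than 1 list. A gene of the counter-receptor list and a gene of the platelet list are not reported here. Genes of the lists are named by highest mean CPM and largest absolute log2 fold change, and others are named beside their counts. Alternatives used DESeq2 1.42.0 and limma 3.58.1 (voom), other scalings and filters, glmTreat, a replicate block and each library left out. The procedure was tested on simulated data. No pair of libraries of the same region agreed within sampling noise.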

Additional observations from a re-analysis of the deposited data

How the results depend on the processing

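All 8 tested members remained upregulated in edgeR with RLE, upper quartile or library total scaling, with no filter on low counts, with no fold change threshold, in DESeq2 and limma voom, and with each library left out in turn, where the count was 8 to 8. A minimum of 10 counts in every library left 5 of them, because *Icam2*, *Sele*, and *Selp* were then not tested. Against a fold change of 2, 7 passed, and *Icam2* did not (adjusted *p* = 0.0504 by glmTreat of edgeR, between 0.00379 and 0.0358 in its other settings). Over these settings the log2 fold change ran from 2.05 to 2.56 for *Vcam1*, 4.73 to 5.26 for *Icam1*, 1.53 to 2.27 for *Icam2*, 1.65 to 1.98 for *Selplg*, 1.53 to 1.95 for *Pecam1*, and 1.92 to 2.25 for *Cdh5*, and 0 members reversed. Scaling by library totals shifted all genes by a median of 0.203 on the log2 scale. The replicate numbers showed no pairing in the data. Deviations of same-numbered libraries correlated at −0.19, 0.101, and 0.0011, and no infarct correlated best with the contralateral cortex of its own number. With 3 libraries per region and correlations this weak, the check cannot tell whether same-numbered libraries share a mouse. With the replicate block, 8 members were called in edgeR and 8 in DESeq2, and the genes upregulated numbered 3945 with it and 3999 without it in edgeR, and 4169 with it and 4434 without it in DESeq2. Depth limits *Madcam1*, *Sele*, and *Icam2*, each with fewer than 100 counts in all.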
